A study of Mus musculus with 32 samples.

Results

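The clustered histone genes of the mouse are described here in 2 kinds of CD4 T cell from liver and spleen. Regulatory T cells (Treg) were sorted by the labels as TCRb+CD4+Foxp3+. Conventional T cells (Tconv) were sorted as TCRb+CD4+Foxp3-. Members were chosen by name: every protein-coding gene whose symbol begins with Hist1h, Hist2h, Hist3h or Hist4h, which gave 67 of the 35968 genes quantified. A further 3 genes with such names are pseudogenes and were left out. The family was taken up with earlier results of these data known, namely that Hist1h1e and Hist1h4n were lower after CCl4 in spleen Treg and that Hist1h4n was higher after CCl4 in liver Tconv. Values in those contrasts are therefore given as a description.

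All 32 libraries come from male C57BL/6 mice of the genotype Foxp3GFP, in which a green fluorescent protein reports Foxp3, the transcription factor that defines Treg. Each of the 4 populations, liver Treg, liver Tconv, spleen Treg and spleen Tconv, has 3 libraries from control mice and 5 from mice given carbon tetrachloride (CCl4), a solvent that injures the liver. The labels give neither the dose, the time nor the age. Nor do they tie each library to a mouse of its own, so p-values measure the spread between these samples, which may be technical.

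Histones H2A, H2B, H3 and H4 form the protein core of the nucleosome, and H1 binds the linker DNA between nucleosomes. Most genes of the histone clusters are transcribed in S phase, when new DNA must be packaged. Their mRNAs are unusual in ending not in a poly(A) tail but in a short stem-loop that is bound by SLBP, the stem-loop binding protein. Some members also give longer, polyadenylated transcripts in cells that do not divide. The cDNA kit named in the labels starts from poly(A) tails, so a level given here need not stand for all RNA of a gene. How far it departs from that was not tested.

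The stem-loop shows which annotated transcripts stop at the S phase end and which run past it. It is printed for 4 members that recur in the results, 5′ to 3′ on the gene's own strand, with the bases of the stem in capitals and the loop in lower case. The sequences are from the GENCODE M21 transcripts on GRCm38. The H2A gene Hist1h2ap has it at chr13:21833029-21833044 (minus strand), the H4 gene Hist1h4n at chr13:21831798-21831813 (minus strand), the H4 gene Hist1h4i at chr13:22040966-22040981 (minus strand) and the H2A gene Hist2h2ac at chr3:96220418-96220433 (minus strand). All 4 lie in the 3′ untranslated region of a gene with a single exon.
Hist1h2ap: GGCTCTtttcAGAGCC
Hist1h4n: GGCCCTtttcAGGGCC
Hist1h4i: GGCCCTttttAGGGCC
Hist2h2ac: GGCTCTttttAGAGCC

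The form shown for Hist1h2ap was the commonest and stood in 26 of the 67 members, the H1 genes Hist1h1c, Hist1h1d and Hist1h1e among them. That of Hist1h4n stood in 7, all of them H4 genes. Searched on the transcribed strand, the histone stem-loop motif was found in the first 100 bases after the stop codon in 28 of 35 member transcripts that are annotated so far (80%), against 2 of 47319 transcripts of other coding genes (0.00423%). Taking for each member the transcript with the most counts, 20 members ended within 50 bases of the stem-loop, 26 ran more than 50 bases past it, and 5 held none in their annotated 3′ end. The remaining 16 are annotated with fewer than 16 bases after the stop codon, so no stem-loop could fit. Of the 26 that ran past it, 12 had the polyadenylation hexamer AATAAA or ATTAAA in their last 50 bases, as did 1 of the 20 that ended at it. Over all coding transcripts that are not members, 57.6% had a hexamer there, and 27.0% of member transcripts did. Hist1h2ap ended 3 bases past the stem-loop and Hist1h4n 31, while Hist1h1c ran 840 bases past it, Hist3h2a 1643 and Hist4h4 2445.

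Many members are near copies of each other, which limits how surely a read can be given to one of them. A median of 55.2% of a member's 31-base words also occurred in another gene, from 3.75% for the H1 genes to 74.9% for the H2A genes. By a rule that 2 members belong together when either shares over 50% of its words with the other, 49 members fell into 7 sets. These held 12 H2A genes of the Hist1 cluster, 14 H2B genes, 9 H3 genes, 7 H4 genes, the pair Hist1h4m and Hist1h4n, the pair Hist2h2aa1 and Hist2h2aa2, and 3 Hist2h3 genes. Hist1h2ap shared 93.4% of its words with Hist1h2ao, which lies in the same cluster on the opposite strand, yet averaged 169 CPM (counts scaled to library size with TMM factors) where Hist1h2ao was given 0.270. In the same way Hist1h4n averaged far more than Hist1h4m, which never exceeded 6 counts, although 85.2% of its words occur in Hist1h4m. Hist2h2aa2 was listed at 0 in all libraries. All of its words occur in its twin Hist2h2aa1, so this 0 shows only how reads were shared out and sets no limit on its level. A level of Hist1h2ap, Hist1h4n or Hist2h2aa1 is therefore best read as that of its set.

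Other overlaps matter for single members. Hist1h1e overlaps the H2B gene Hist1h2be on the same strand by 496 bases. Other genes share 34.7% of the words of Hist1h1e, and Hist1h2be shares the most. Hist3h2a lies wholly within the span of Trim17 on the same strand, though Trim17 itself averaged no more than 1.17 CPM in any group. The span of Hist2h2aa1 is overlapped by that of Gm20634 on the same strand, by 529 bases, and by that of the antisense gene Gm20633. Whether the counting used strand is not given in the sources used here, so reads of Hist2h2aa1 and Gm20633 cannot be told apart.

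Per library, estimated counts summed to between 24513124 and 75292019. Foxp3 averaged between 973 and 1061 CPM in the 4 Treg groups and between 0.976 and 2.90 in the 4 Tconv groups, and the T cell genes Cd3e and Cd4 were at 495 CPM or more in all libraries. The spleen control libraries numbered 2 and 3 stood apart in both cell types: Fos, an immediate early gene that rises on cell handling, was between 19.4 and 26.4 CPM there and at least 711 CPM in the other spleen libraries. Results that rest on spleen controls were also computed without these 4 libraries, a choice taken from an earlier analysis of these data. It left only control 1 in each spleen population, so a call lost under it may reflect the smaller number of libraries. Of the 67 members 61 passed the filter on low counts and were tested. The other 6, namely Hist1h2af, Hist1h1t, Hist1h4m, Hist1h2aa, Hist1h2ba and Hist2h2aa2, did not. Counts below are over the 61, a set that need not stand for the whole family, since a member could pass through 1 group where it was high.

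Per length, Hist1h2ap was by far the most abundant member. In deposited TPM, which scale transcript counts by length and library, it averaged 978 ± 430 (SD, n = 32), more than 6 times the next, the H2A gene Hist2h2aa1, at 154 ± 49.9. The H4 gene Hist1h4n followed at 95.9 ± 47.2 and the H1 gene Hist1h1c at 53.6 ± 38.5. These means pool both tissues: Hist1h1c fell as low as 10.8 TPM in a library, while Hist3h2a, sixth in this order, was never under 20.2. Then came the H2B gene Hist2h2bb, the H2A genes Hist3h2a and Hist1h2ae and the H2B gene Hist1h2bc, which lay between 26.6 and 28.2 TPM and did not differ beyond their spread. The 18 H2A genes together made up 57.7% of the summed CPM of the family, the 6 H1 genes 17.2%, the 13 H4 genes 10.9%, the 18 H2B genes 10.3% and the 12 H3 genes 3.93%. Hist1h2ap alone was 35.6% of it. Members whose annotated transcript ends at the stem-loop held 50.5% of the summed CPM, and members whose annotated transcript runs past it 39.6%. These classes describe the annotation, and where the measured RNA ended was not tested.

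Summed over all 67 members, which no filter touches, the family was highest in liver Tconv after CCl4 and lowest in spleen Tconv after CCl4. The liver Treg controls held 682, 589 and 546 CPM and the liver Treg CCl4 libraries 599, 553, 543, 605 and 520. The liver Tconv controls held 515, 636 and 637 CPM and the CCl4 libraries 648, 699.9, 714, 794 and 861. These liver values overlapped between the cell types in the controls, and in Tconv the CCl4 libraries all lay above the controls. Spleen Treg held 424, 416 and 471 CPM in the controls and 304, 274, 314, 296 and 309 after CCl4. Spleen Tconv held 292, 309 and 315 CPM in the controls and 317, 237, 251, 220 and 255 after CCl4. Every liver library lay above every spleen library, and in spleen Treg the CCl4 libraries were all below the controls. These are bulk samples, so fewer cells that make histone RNA and less RNA per cell cannot be told apart.

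**Figure D1:**
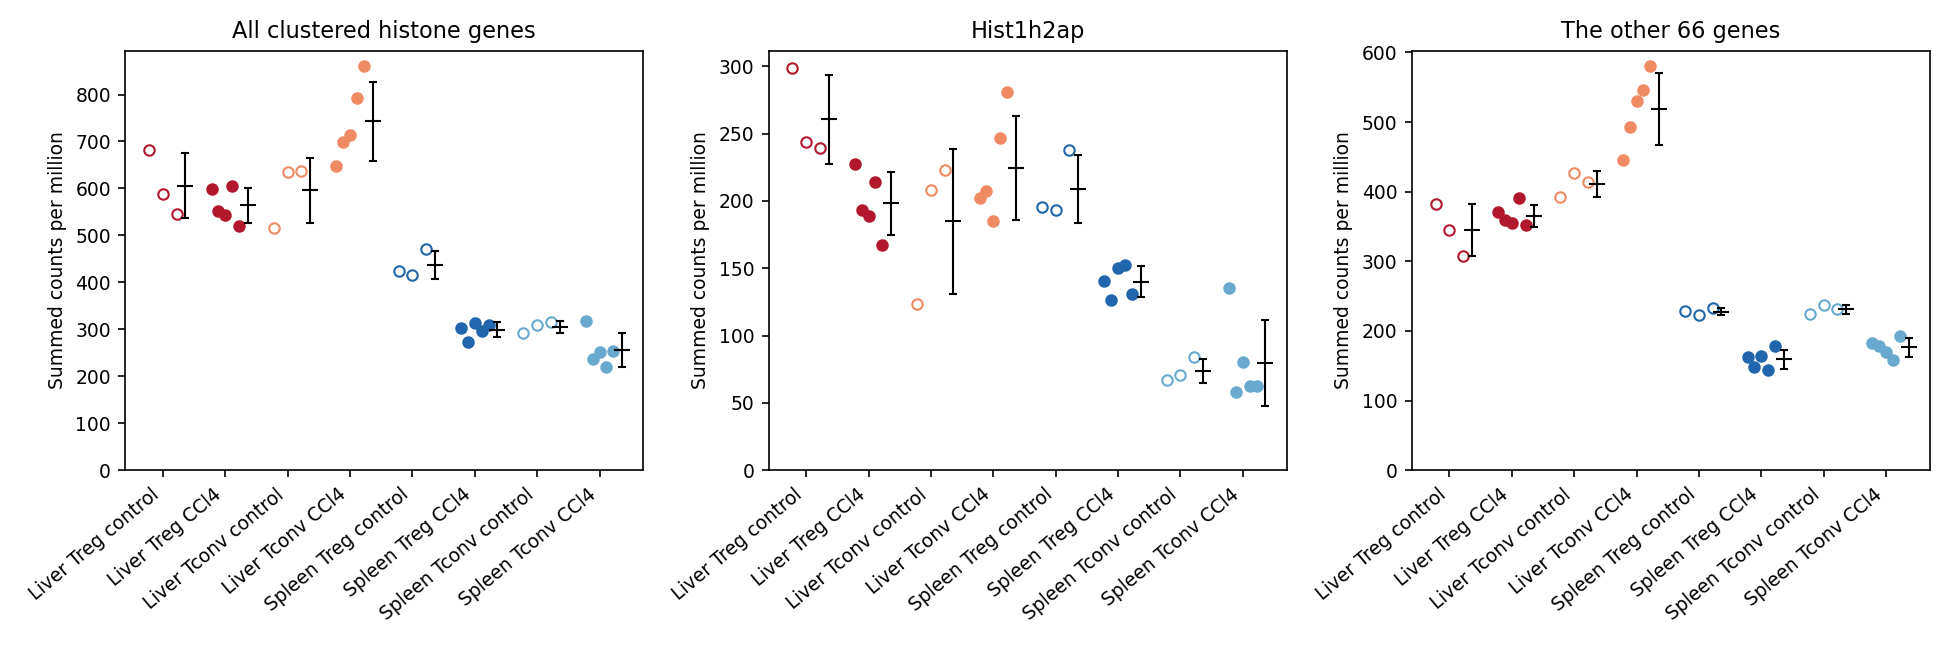
Summed CPM (y axis, linear, from 0) of all 67 clustered histone genes, of Hist1h2ap and of the other 66 in each library (points; open for control, filled for CCl4), with the mean and SD of each of the 8 groups (bars). Liver libraries lie above spleen libraries in the left and right panels, while Hist1h2ap in spleen Treg controls (209 ± 25.4 CPM) reaches the liver levels.

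Histone RNA took a larger share of the counts in liver libraries than in spleen libraries in both cell types. Averaged over both treatments, the sums of all 5 histone kinds were higher in liver too. The summed level was 1.61-fold higher in liver Treg than spleen Treg and 2.38-fold higher in liver Tconv than spleen Tconv (log2 ratios 0.69 and 1.25, with a pooled SD between libraries of 0.11 and 0.16). H1 genes differed most, with a summed level 3.51-fold and 3.91-fold higher in liver, and H2A genes least, at 1.30-fold and 2.07-fold. Leaving out spleen controls 2 and 3, the summed log2 ratios were 0.71 in Treg and 1.28 in Tconv, with H1 genes at 3.69-fold and 3.90-fold and H2A genes at 1.31-fold and 2.08-fold. In the edgeR fit, which averages both treatments and calls a gene at a Benjamini-Hochberg adjusted p under 0.05 over all 17159 genes tested, 44 of 61 members were higher in liver Treg and 0 lower. Of all genes tested, 30.1% were called higher and 30.5% lower there. In Tconv 54 of 61 were higher and 0 lower, against 27.2% and 27.7% of all genes. The median log2 fold change of the members was 1.10 in Treg and 1.53 in Tconv, and that of all genes 0.04 in each. In Tconv the split by kind showed no exception: 5 of 5 H1, 13 of 15 H2A, 14 of 17 H2B, 10 of 12 H3 and 12 of 12 H4 genes were called higher. In Treg the summed H4 level was 1.38-fold higher in liver when both treatments were averaged, but the controls showed no liver excess. Those controls held 54.7, 39.5 and 43.9 CPM in liver and 44.95, 42.2 and 51.1 in spleen. After CCl4 the summed H4 level in Treg was between 44.1 and 56.0 CPM in liver and between 20.5 and 34.6 in spleen. Members annotated to end at the stem-loop (14 of 18 called in Treg, 16 of 18 in Tconv) and members annotated past it (16 of 25 and 22 of 25) were both among those called higher. Without spleen controls 2 and 3, 33 members were called in Treg and 48 in Tconv. All were higher in liver but Hist3h2a in Treg (log2 fold change -0.20, edgeR adjusted p = 0.0467).

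**Figure D2:**
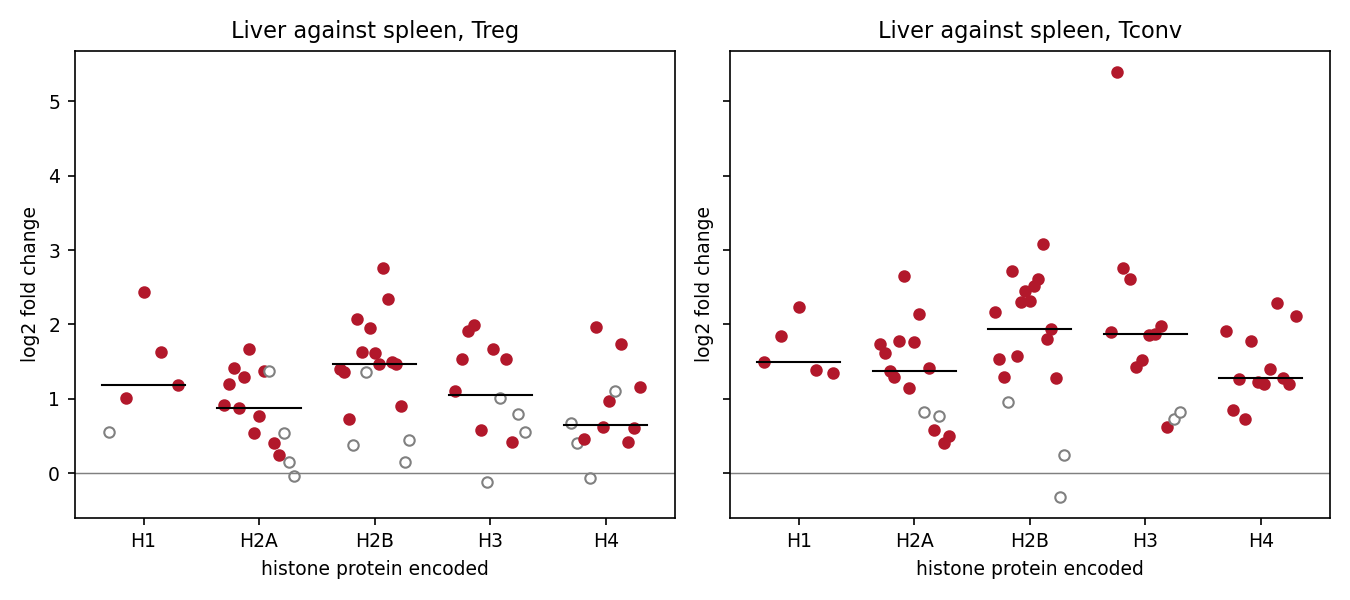
Log2 fold change of liver against spleen (y axis) for the 61 members tested, by the histone protein encoded (x axis), in Treg and Tconv. Filled red points are called higher in liver at an adjusted p under 0.05, open points are not called, and bars are medians, which lie above 0 for every kind in both panels.

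Hist1h1c, which encodes the linker histone H1.2 and is known for polyadenylated transcripts outside S phase, showed the smallest adjusted p of the family in both cell types. Liver Treg held 67.9, 87.1 and 58.6 CPM in the controls and 55.1, 75.9, 64.8, 74.4 and 68.7 after CCl4. Spleen Treg held 12.2, 16.8 and 15.9 CPM in the controls and 11.2, 9.78, 11.1, 9.93 and 12.8 after CCl4. The lowest liver library was thus more than 3 times the highest spleen library in Treg. The log2 fold change was 2.44 in Treg (SE 0.11, edgeR adjusted p = 3.5e-17) and 2.24 in Tconv (SE 0.11, edgeR adjusted p = 1.96e-16). In Tconv, Hist1h1c averaged 101 ± 14.1 CPM in liver and 20.9 ± 3.32 in spleen (SD, n = 8 each). Its log2 fold changes without spleen controls 2 and 3 were 2.59 and 2.08.

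Other H1 genes were higher in liver too. Hist1h1e (H1.4) averaged 29.4 ± 4.20 CPM in liver Treg and 12.3 ± 5.19 in spleen Treg (log2 fold change 1.18, edgeR adjusted p = 1.09e-08). In Tconv its log2 fold change was 1.34 (edgeR adjusted p = 1.54e-09). Hist1h1d (H1.3) averaged 12.0 ± 2.21 against 3.62 ± 1.51 CPM in Treg (log2 fold change 1.63, edgeR adjusted p = 2.42e-08). For each of these genes, libraries of the 2 tissues did not overlap within either treatment in Treg. The Treg log2 fold changes without spleen controls 2 and 3 were 1.28 for Hist1h1e and 1.59 for Hist1h1d, and that of Hist1h1e in Tconv was 1.59.

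Of the H2B genes, Hist1h2bc and Hist1h2bg differed most surely. Hist1h2bc, whose annotated transcript has 2 exons and no stem-loop, averaged 26.5 ± 5.00 CPM in liver Treg and 9.78 ± 1.82 in spleen Treg, with log2 fold changes of 1.37 in Treg (edgeR adjusted p = 2.23e-11) and 1.53 in Tconv (edgeR adjusted p = 3.47e-12). Hist1h2bg, which runs 155 bases past the stem-loop, averaged 9.04 ± 2.10 CPM in liver Treg, 7.08 ± 2.58 in liver Tconv, 2.01 ± 1.07 in spleen Treg and 0.949 ± 0.340 in spleen Tconv. Its set of near copies, 14 H2B genes whose sum does not depend on how reads were shared out within the set, was 2.75-fold higher in liver in Treg and 3.42-fold in Tconv, and 3.03-fold and 3.74-fold without spleen controls 2 and 3. That choice gave 1.40 and 1.57 for the log2 fold changes of Hist1h2bc. By contrast Hist2h2be, an H2B gene with a long annotated 3′ end, a polyadenylation hexamer and few shared words (2.8%), did not pass the test in either cell type. Its log2 fold change was 0.14 in Treg and -0.32 in Tconv (edgeR adjusted p = 0.444 and 0.087), and 0.275 and -0.21 without those controls.

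Among H4 genes, Hist4h4, which stands alone on chromosome 6, averaged 5.21 ± 1.43 CPM in Treg of the liver, against 2.32 ± 0.752 in those of the spleen. For Tconv the levels were 9.96 ± 2.38 and 2.13 ± 1.10 CPM (log2 fold changes 1.16 and 2.11, edgeR adjusted p = 5.43e-06 and 2.99e-10). Hist1h4i was also higher in liver, by 0.98 on the log2 scale in Treg (edgeR adjusted p = 0.00242) and 1.20 in Tconv (edgeR adjusted p = 0.000381). Hist1h4n was higher by 0.42 in Treg (edgeR adjusted p = 0.00837), with overlapping libraries, and by 1.28 in Tconv (edgeR adjusted p = 3.29e-09). The Treg value averages treatments that differed, and liver was the higher tissue only after CCl4. In Treg controls the sum of Hist1h4n and Hist1h4m was 11.7, 8.34 and 8.62 CPM in liver and 14.2, 10.9 and 14.0 in spleen. After CCl4 that sum was between 14.6 and 18.8 CPM in liver Treg and between 4.77 and 9.18 in spleen Treg. The Treg value of Hist1h4n was 0.35 without spleen controls 2 and 3 (edgeR adjusted p = 0.108), while Hist4h4 had log2 fold changes of 1.21 and 2.60 and Hist1h4i of 1.03 and 1.37, all called.

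The summed H2A level differed least, but gene by gene the median log2 fold change in Treg was 0.87 for the 15 H2A genes tested and 0.64 for the 12 H4 genes. Hist1h2ap was 0.41 higher in liver on the log2 scale in Treg (SE 0.14, edgeR adjusted p = 0.0141) and 1.41 higher in Tconv (SE 0.15, edgeR adjusted p = 2.76e-09). The Treg call of Hist1h2ap was lost without spleen controls 2 and 3 (0.46, edgeR adjusted p = 0.065) and without liver Treg control 1 (0.35, edgeR adjusted p = 0.0509). Hist2h2aa1 was higher by 0.25 in Treg and 0.58 in Tconv (edgeR adjusted p = 0.0136 and 9.41e-07), and its Treg call was lost without those spleen controls (0.21, edgeR adjusted p = 0.146), without liver Treg control 1 (0.16, edgeR adjusted p = 0.11) and without spleen Treg control 2 (0.21, edgeR adjusted p = 0.0516). Hist3h2a did not pass in Treg (-0.03, edgeR adjusted p = 0.731) and was 0.50 higher in liver Tconv (edgeR adjusted p = 4.88e-06). Hist1h2ae, of the same set of copies as Hist1h2ap, was higher by 0.87 in Treg and 1.30 in Tconv (edgeR adjusted p = 0.000416 and 3.45e-06). Hist2h2bb, an H2B gene annotated only as its coding part, was higher by 0.90 and 1.27 (edgeR adjusted p = 0.00126 and 2.1e-05).

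Genes that mark dividing cells were higher in the same comparisons. Of 18 genes of mitosis and the G2 phase, 17 were called higher in liver Treg and 18 in liver Tconv. Of 18 S phase genes, 14 and 15 were higher, and 0 were lower. Ccne2, an S phase cyclin, averaged 23.3 ± 3.82 CPM in liver Treg and 5.82 ± 2.02 in spleen Treg (log2 fold change 2.07, edgeR adjusted p = 3.25e-11). The 15 genes of histone RNA synthesis and processing did not move together, with 6 higher and 8 lower in liver Treg and 4 higher and 8 lower in liver Tconv. Slbp itself averaged 290 ± 17.3 CPM in liver Tconv and 141 ± 18.4 in spleen Tconv (log2 fold change 1.08, edgeR adjusted p = 1.02e-13). Of 15 histone chaperones 4 were higher and 5 lower in liver Treg, and 6 higher and 4 lower in liver Tconv. RNA of hepatocytes moved with the tissue: the summed CPM of 5 hepatocyte markers was between 3.51 and 251 in liver libraries and between 0.052 and 1.04 in spleen libraries, with all 5 called in both cell types and Apob at 0 in both spleen Tconv groups. Its part in the histone levels was not tested.

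The liver excess differed between the cell types for some members. The difference of the liver effects, Treg minus Tconv, was called below 0 for 13 of 61 members and above 0 for 0, against 12.4% and 7.02% of all genes. The 13 included Hist1h2ap (-0.997, edgeR adjusted p = 0.000598), Hist3h2a (-0.53, edgeR adjusted p = 0.000975), Hist1h4n (-0.87, edgeR adjusted p = 0.00117) and Hist4h4 (-0.95, edgeR adjusted p = 0.0107). Hist1h1c, Hist1h1e and Hist1h2bc were not among them. Without spleen controls 2 and 3 the differences were -1.02 for Hist1h2ap, -0.59 for Hist3h2a, -0.99 for Hist1h4n and -1.39 for Hist4h4, each farther from 0. Hist1h4d and Hist2h2aa1, also among the 13, went from -0.798 to -0.795 and from -0.338 to -0.317. That choice left only control 1 in each spleen population, so it cannot tell whether the count of 13 rests on the libraries left out.

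Between Treg and Tconv of the same tissue, members were called in both directions. In liver 28 of 61 log2 fold changes lay above 0 (median -0.03) and in spleen 45 of 61 (median 0.39), where the median of all genes was 0.01 in each. In liver 5 of 61 members were higher in Treg and 17 lower, where 24.7% of all genes were higher and 27.1% lower, so the members' share was near the background for lower calls and under it for higher calls. In spleen 16 were higher and 7 lower, where 19.4% of all genes were higher and 20.3% lower. Without spleen controls 2 and 3, 14 members in all were called in spleen. The summed level was 0.88-fold in liver Treg relative to liver Tconv, but 0.15 higher on the log2 scale when taken as deposited TPM. In spleen it was 1.30-fold (1.31-fold without controls 2 and 3), and without Hist1h2ap it was 0.94-fold. Markers of other cells also differed. In liver Treg 2 of 2 NK markers tested were lower (the third, Ncr1, was at 0 in both Treg groups), with sums between 0.0826 and 2.36 CPM against between 12.8 and 46.8 in Tconv. Of 5 hepatocyte markers 3 were lower there. In spleen Treg 3 of 5 B cell markers were higher (sums up to 37.6 CPM in the controls and between 27.8 and 41.6 after CCl4, against between 3.71 and 9.10 in Tconv), as were 3 of 7 myeloid markers (between 17.1 and 108 against between 9.24 and 32.5). Their part in the histone values was not tested.

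In the Hist2 cluster on chromosome 3, 6 of 9 tested members were called lower in Treg and 0 higher in each tissue. Of all genes, 27.1% were lower and 24.7% higher in liver, and 20.3% and 19.4% in spleen. Hist2h3c1 (log2 fold change 1.02 in liver and 0.95 in spleen) and Hist2h3c2 (0.185 and 0.447) went the other way and were not called. In the Hist1 cluster on chromosome 13, out of 49 tested members 5 were higher and 9 lower in liver, and 16 were higher and 1 lower in spleen. Spleen without controls 2 and 3 gave 3 of 9 lower and 0 higher for Hist2, and 10 of 51 higher and 1 lower for Hist1. Hist2h2aa1 averaged 29.1 ± 3.25 CPM in liver Treg and 59.1 ± 6.74 in liver Tconv (log2 fold change -0.998, SE 0.09, edgeR adjusted p = 4.3e-11), and 23.9 ± 4.48 against 38.3 ± 4.54 in spleen (-0.66, edgeR adjusted p = 1.9e-07). In both tissues its libraries did not overlap between the cell types within a treatment. Hist2h4, an H4 gene with few shared words (2.3%), averaged 3.42 ± 0.823 CPM in liver Treg and 10.3 ± 2.76 in liver Tconv (log2 fold change -1.46, edgeR adjusted p = 1.44e-07). Hist2h2ac and Hist2h2bb were lower in Treg in liver (-0.91 and -1.28, edgeR adjusted p = 1.26e-05 and 2.09e-05) and in spleen (-0.65 and -0.90, edgeR adjusted p = 0.000989 and 0.00187). In spleen those last 2 calls were lost without controls 2 and 3 (edgeR adjusted p = 0.115 and 0.0872). Hist2h2be was lower in Treg in both tissues (log2 fold change -0.63 in liver and -1.09 in spleen, edgeR adjusted p = 0.00141 and 1.77e-06). Hist3h2a held between 27.2 and 36.4 CPM in liver Treg libraries and between 45.8 and 59.1 in liver Tconv (-0.66, edgeR adjusted p = 5.39e-08), and did not pass the test in spleen (-0.12, edgeR adjusted p = 0.241).

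Members of the Hist1 cluster went both ways. Hist1h1c was lower in Treg in liver (-0.53, edgeR adjusted p = 5.87e-05) and spleen (-0.73, edgeR adjusted p = 1.24e-06), while Hist1h1e was higher in both (0.47 and 0.63, edgeR adjusted p = 0.00329 and 0.000297). Hist1h1d was higher in liver Treg by 0.82 (edgeR adjusted p = 0.000503), with libraries that did not overlap. So was the H3 gene Hist1h3g, by 1.66 (edgeR adjusted p = 0.00456), at a level near 1 CPM. In spleen the H2A gene Hist1h2ag was higher in Treg by 1.34 (edgeR adjusted p = 0.00055), and by 1.40 without controls 2 and 3. Hist1h2ap did not differ detectably between the cell types in liver (0.16, edgeR adjusted p = 0.367) and was 1.15 higher in spleen Treg (SE 0.15, edgeR adjusted p = 1.28e-07), or 1.18 without those controls. Its spleen Tconv libraries held 67.0, 71.0 and 83.8 CPM in the controls and 135, 58.4, 80.5, 62.5 and 62.3 after CCl4. Of these only CCl4 library 1 reached the spleen Treg values of between 126 and 238. Hist1h4n was lower in liver Treg (log2 fold change -0.83, edgeR adjusted p = 5.13e-06) and not called in spleen (0.04, edgeR adjusted p = 0.849). Hist4h4 was lower in liver Treg (log2 fold change -0.82, edgeR adjusted p = 0.000456) and not called in spleen (0.13, edgeR adjusted p = 0.648).

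Dividing-cell genes were mostly higher in Treg in both tissues. Of the 18 G2/M genes 15 were higher in liver Treg and 18 in spleen Treg than in Tconv, with 0 lower. S phase genes were higher in 12 of 18 and lower in 2 in liver, and higher in 11 and lower in 1 in spleen. Replacement histones come from genes beyond the clusters and are not made only in S phase. Among them H2afz, the gene of H2A.Z, averaged 1212 ± 242 CPM in liver Treg and 608 ± 60.2 in liver Tconv (log2 fold change 0.90, edgeR adjusted p = 3.24e-12). H1f0, the gene of the linker histone H1.0, averaged 159 ± 31.3 against 47.5 ± 11.0 (1.69, edgeR adjusted p = 4.34e-12). Of the 10 replacement histones 3 were higher and 5 lower in liver Treg.

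After CCl4 few single members passed the test in any population. Among the 61 members, 1 was called higher and 0 lower in liver Treg, where 7.55% of all genes were higher and 7.34% lower. In liver Tconv 1 was higher and 0 lower, where 0.146% and 0.181% of all genes were. In spleen Treg 0 were higher and 6 lower, where 0.758% and 0.42% of all genes were. In spleen Tconv 0 were higher and 3 lower, where 0.653% and 0.414% of all genes were. The liver Tconv and spleen Treg contrasts are the ones in which members were noticed first, so nothing is read from their counts. Single libraries decided these small counts. In liver Tconv 0 members were called without control 1, 2 or 3 or CCl4 library 4 or 5, and 2 without CCl4 library 1 or 3. In spleen Treg 0 were called without control 3, 2 without control 2 and 3 without CCl4 library 4. In spleen Tconv 8 were called without control 1, 0 without control 2 or 3, and 1 without CCl4 library 1 or 3. Where leaving out 1 library left 0 calls, edgeR still gave an unadjusted p under 0.05 for between 14 and 17 members in liver Tconv, for 24 in Treg of the spleen, and for 15 or 21 in spleen Tconv. Fold changes lay above 0 for 39 of 61 members in liver Treg (median 0.25 on the log2 scale) and 54 in liver Tconv (median 0.64), and below 0 for 53 in spleen Treg (median -0.66) and 53 in spleen Tconv (median -0.65). The median of all genes was within 0.013 of 0 in each.

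**Figure D3:**
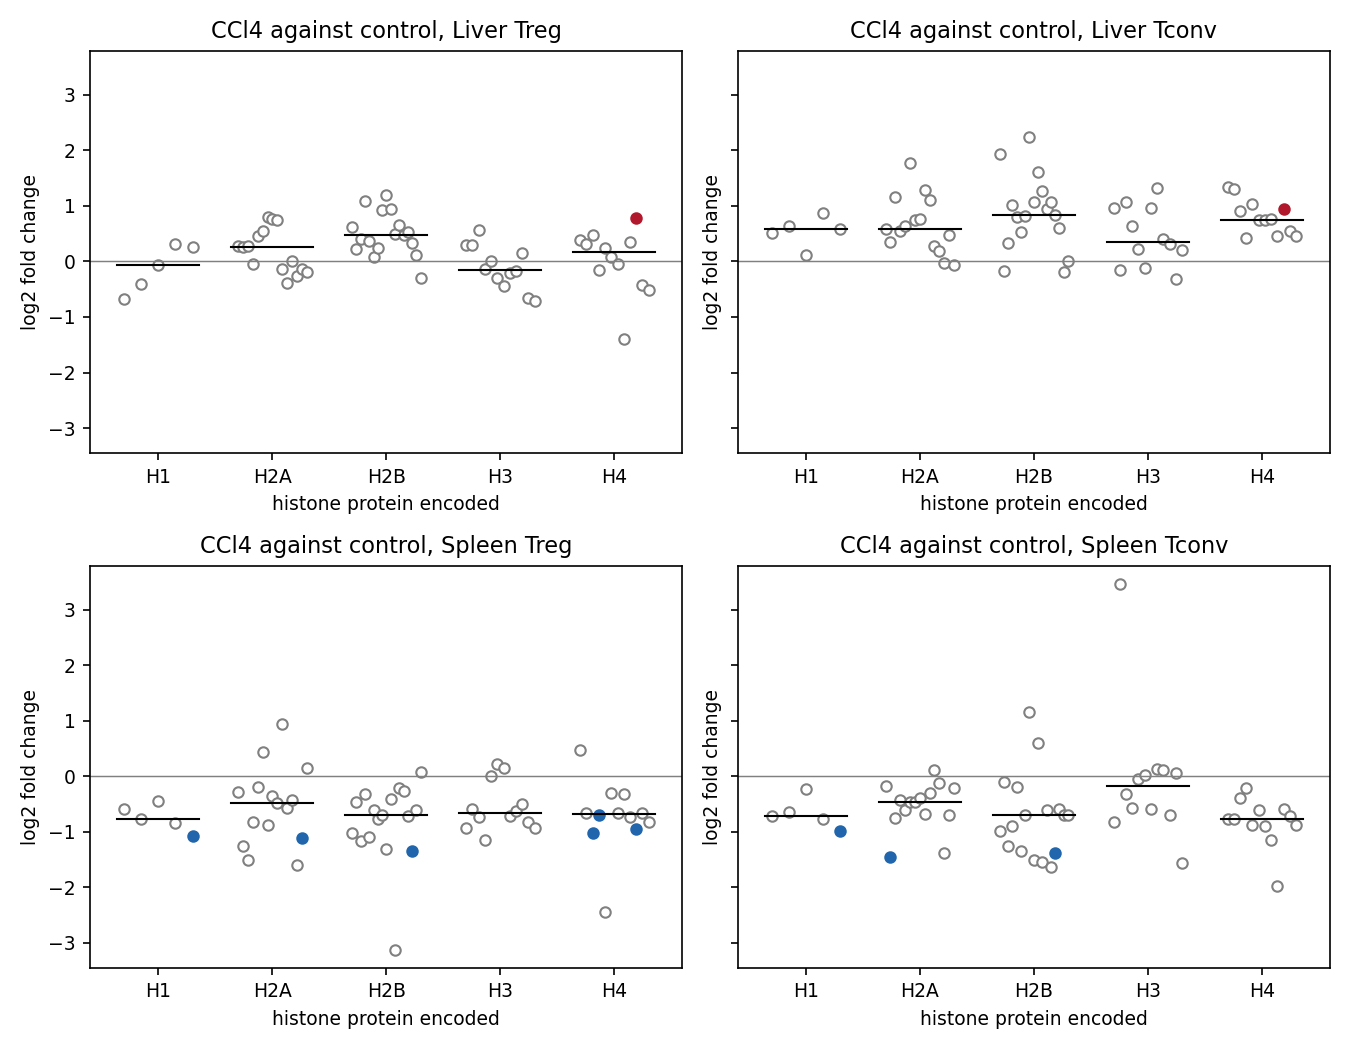
Log2 fold change of CCl4 against control (y axis) for the 61 members tested, by the histone protein encoded (x axis), in the 4 populations. Filled red points are called higher and filled blue points lower at an adjusted p under 0.05, open points are not called, and bars are medians, all above 0 in liver Tconv and all below 0 in both spleen panels.

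Hist1h4n was the member called in liver Treg. It held 11.5, 8.34 and 8.62 CPM in the controls and 17.4, 14.6, 15.8, 18.8 and 15.1 after CCl4, with all CCl4 libraries above the controls (log2 fold change 0.78, SE 0.19, edgeR adjusted p = 0.00507). Liver Tconv held 18.1, 15.1 and 14.6 CPM in the controls and 21.3, 28.5, 32.5, 38.0 and 33.0 after CCl4, a log2 difference of 0.95. Spleen Treg held 14.2, 10.9 and 14.0 CPM in the controls and 5.89, 6.43, 7.39, 4.77 and 9.18 after CCl4, a log2 difference of -0.95. The liver libraries went up and the spleen libraries down. In spleen Tconv it held 10.2, 9.45 and 13.6 CPM in the controls and 6.81, 7.73, 8.29, 5.74 and 8.43 after CCl4 (-0.58, edgeR adjusted p = 0.112). Control and CCl4 libraries did not overlap in any of the 4 populations. In the liver Treg fit its direction and call held over 14 alternatives, with adjusted p between 0.000662 and 0.041.

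Hist1h1e was the member with the smallest adjusted p in spleen. Spleen Treg held 15.9, 19.5 and 19.7 CPM in the controls and 7.17, 8.09, 9.55, 9.65 and 9.11 after CCl4, a log2 difference of -1.08. Spleen Tconv held 8.04, 13.4 and 13.1 CPM in the controls and 7.05, 4.52, 4.56, 5.05 and 7.78 after CCl4 (log2 fold change -0.99, SE 0.19, edgeR adjusted p = 0.00896). In both populations every CCl4 library lay below every control, and control 1 was the lowest control. Without controls 2 and 3 the Tconv value was -0.48 (edgeR adjusted p = 1) and the Treg log2 difference -0.86. Leaving out only control 2 or only control 3 also ended the Tconv call (-0.87 and -0.88, edgeR adjusted p = 0.146 and 0.124), and in Treg the gene was no longer called under any of these 3 choices. In liver Treg its log2 fold change was 0.26 (edgeR adjusted p = 0.41) and in liver Tconv 0.58 (edgeR adjusted p = 0.167).

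**Figure D4:**
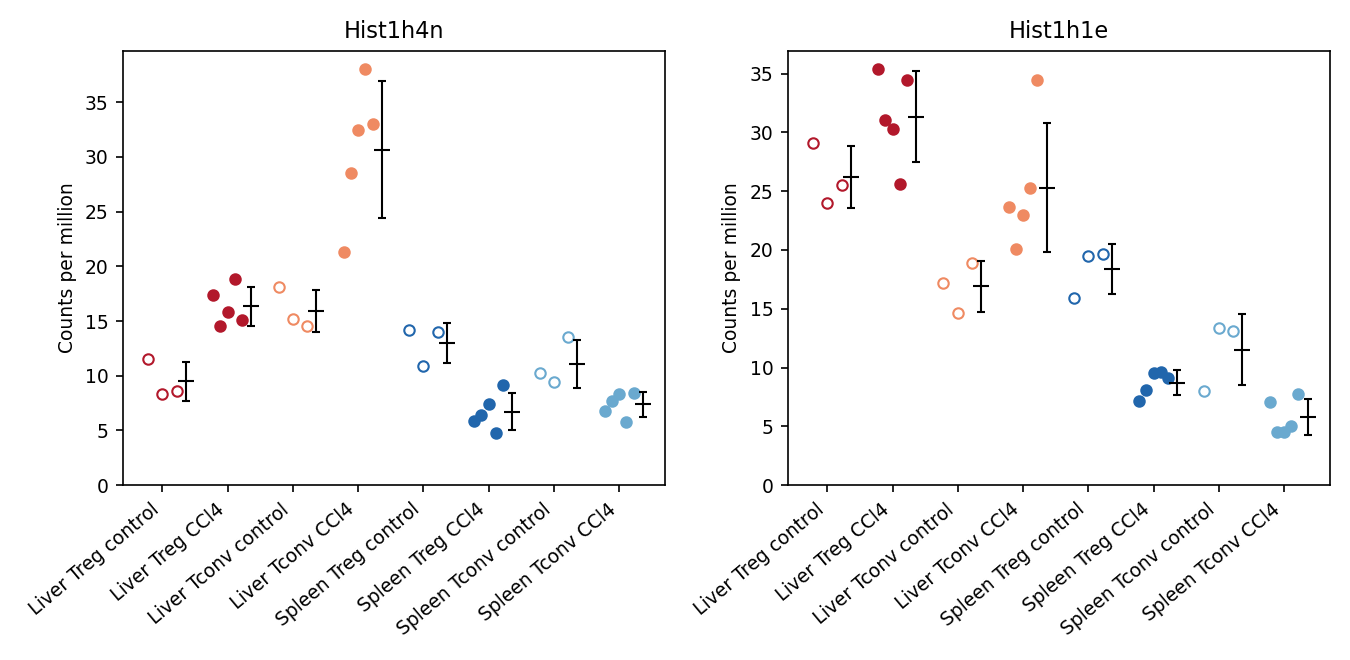
CPM (y axis, linear, from 0) of Hist1h4n and Hist1h1e in each of the 32 libraries (points; open for control, filled for CCl4) with the mean and SD of each of the 8 groups (bars). Hist1h4n CCl4 libraries lie above the controls in both liver populations, and CCl4 libraries of both genes lie below the controls in both spleen populations.

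The other members called in spleen Treg were the H2A gene Hist2h2ac, the H4 genes Hist1h4d and Hist1h4c and the H2B gene Hist2h2bb. Their log2 differences were -1.10, -0.70, -1.02 and -1.34, and all CCl4 libraries lay below the controls. The call of Hist1h4c was lost in 10 of 15 alternatives, that of Hist2h2bb in 7 of 16, that of Hist1h4d in 6 of 16 and that of Hist2h2ac in 2 of 16. Hist2h2ac, for example, held 6.04, 4.32 and 5.73 CPM in the controls and 2.72, 2.10, 2.80, 2.09 and 2.74 after CCl4. In spleen Tconv the other calls were Hist1h2br, which shares 89.5% of its words with Hist1h2bq and was near 1 CPM (log2 fold change -1.37, edgeR adjusted p = 0.0365, between 0.00345 and 1 over its alternatives, of which 10 of 15 ended the call), and Hist1h2ac, whose libraries overlapped. Hist2h2aa1 was not called in either spleen population (log2 difference -0.43 in Treg, and -0.12 in Tconv with an edgeR adjusted p of 0.697). Without spleen controls 2 and 3, 0 members and 0 of all genes were called by edgeR in either spleen population, with 17 members in Treg and 7 in Tconv at an unadjusted p under 0.05. With that choice the log2 differences of the members called in spleen Treg in the main fit lay between -0.62 for Hist1h4d and -1.46 for Hist2h2bb. Other members lay outside that range, among them Hist1h1c at -0.152 and Hist1h2ag at 0.135.

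Summed levels followed the same pattern. In spleen Treg the summed level after CCl4 was 0.685-fold of the control (log2 ratio -0.55, pooled SD 0.09) and in spleen Tconv 0.833-fold (-0.26, SD 0.15), where CCl4 library 1 lay above the controls. Without controls 2 and 3 these log2 ratios were -0.50 and -0.20. In liver Tconv it was 1.25-fold (0.32, SD 0.17), with the H4 genes at 1.61-fold. In liver Treg it was 0.934-fold (-0.10, SD 0.13), less than the spread between libraries. Hist1h2ap accounted for the sign there: it held 299, 244 and 239 CPM in the controls and 228, 193, 189, 214 and 167 after CCl4 (log2 fold change -0.40, edgeR adjusted p = 0.198), and without it the sum was 1.06-fold.

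Other values moved with these shifts. In spleen Treg, 3 of 7 myeloid markers were called higher after CCl4, and their summed level was between 17.1 and 24.3 CPM in the controls and between 53.3 and 108 after CCl4, with 0 of the 7 at 0 throughout a group. The part of these cells in the histone values was not tested. Of 3 erythroid markers 2 could be tested and 0 were called by edgeR (2 at an unadjusted p under 0.05), with sums between 1.38 and 4.47 CPM in the controls and between 6.32 and 38.9 after CCl4. In the edgeR fit the G2/M list had 2 of 18 genes called, both lower, in liver Treg and 0 in the other populations (at an unadjusted p under 0.05, 0 in liver Tconv and spleen Treg and 1 in spleen Tconv). The S phase list had 1 of 18 called, higher, in liver Treg and 0 elsewhere (unadjusted, 0 in liver Tconv, 3 in spleen Treg and 2 in spleen Tconv). In liver Treg the smallest adjusted p of the histone-related lists was that of H2afx, the gene of the histone variant H2A.X, which went from 77.7 ± 3.08 to 48.0 ± 5.89 CPM (SD, n = 3 and 5; log2 fold change -0.69, edgeR adjusted p = 8.48e-07).

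The difference of CCl4 effects was tested directly. Between liver Treg and liver Tconv, 0 of 61 members were called in the edgeR fit, against 1.88% of all genes above 0 and 1.77% below. In edgeR 6 members were at an unadjusted p under 0.05, and limma-voom and DESeq2 also called 0. The differences lay below 0 for 53 of 61 members and above 0 for 8, with a median of -0.54 against 0.004 for all genes. Between liver Treg and spleen Treg, 5 members lay above 0 and 0 below, against 2.02% and 3.46% of all genes. Hist1h4n had the smallest adjusted p, with a difference of 1.73 on the log2 scale. The others were Hist1h1e (1.33), Hist1h4c (1.50), Hist2h2bb (1.68) and Hist1h2ai (1.67). The difference between liver Tconv and spleen Tconv, added after the values were seen, was above 0 for 2 members and below 0 for 0, against 0.0291% and 0.0583% of all genes. The 2 were Hist1h1e (1.57) and Hist1h4n (1.53). All 3 tests share samples with the CCl4 contrasts above, and each draws on liver Tconv or spleen Treg, where members were first noticed, so no weight is put on them. Without spleen controls 2 and 3, 1 member was called in Treg and 0 in Tconv (16 at an unadjusted p under 0.05 in edgeR). In Treg 2 were called without liver control 2, 3 without liver control 3 and 9 without spleen CCl4 library 5. In Tconv 0 were called without liver control 2 or spleen control 3, 1 without liver control 3 or spleen control 2, and 9 without spleen control 1.

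How far the family follows division was described with a G2/M score, the mean log2(CPM + 0.5) of the 18 G2/M genes. The score averaged 5.47 ± 0.11 in control and 5.14 ± 0.13 in CCl4 liver Treg (SD, n = 3 and 5). Liver Tconv scored 4.36 ± 0.59 and 4.50 ± 0.28, spleen Treg 4.23 ± 0.22 and 4.20 ± 0.17, and spleen Tconv 2.69 ± 0.24 and 2.81 ± 0.45. Liver Tconv thus scored close to spleen Treg by G2/M genes, and its summed histone level was higher, at 596 ± 69.9 CPM against 437 ± 29.5 in the controls. By the 18 S phase genes the 2 were not alike. That mean was between 5.48 and 5.95 in liver Tconv controls and between 5.37 and 5.38 in spleen Treg controls. After the group means were subtracted, the summed log2 level of the family was set against the G2/M score. Pearson's r was 0.492 and Spearman's rho 0.501 over the 32 libraries, and r was 0.455 without the 2 libraries farthest from the median score. These are descriptions, and the measures come from the same libraries and share their depth and scaling.

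The relation rested on Hist1h2ap. Its own r with the score was 0.772 (rho 0.718, and 0.714 for r without the 2 farthest libraries), and that of the other 66 genes summed was -0.051 (rho 0.091). Within the populations of 8 libraries group means were not subtracted, so a shift between control and CCl4 enters r. There r for Hist1h2ap was 0.756 in liver Treg, 0.896 in liver Tconv, 0.384 in spleen Treg and 0.731 in spleen Tconv. Without the 2 farthest libraries of each population it was 0.821, 0.517, 0.746 and 0.413. For the other 66 genes r was -0.255, 0.320, -0.078 and -0.316, and -0.262, 0.077, 0.424 and -0.361 without the 2 farthest. Liver Tconv control 1, with the lowest score of that population (3.68), also had the lowest Hist1h2ap level, 124 CPM against between 185 and 281 in the other liver Tconv libraries. Of 40 members with a mean of at least 1 CPM, 3 had an r over 0.5, namely Hist1h2ap, Hist1h2ae and the H1 gene Hist1h1b. The remaining 37 lay between -0.5 and 0.5, with a median over all 40 of -0.08.

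**Figure D5:**
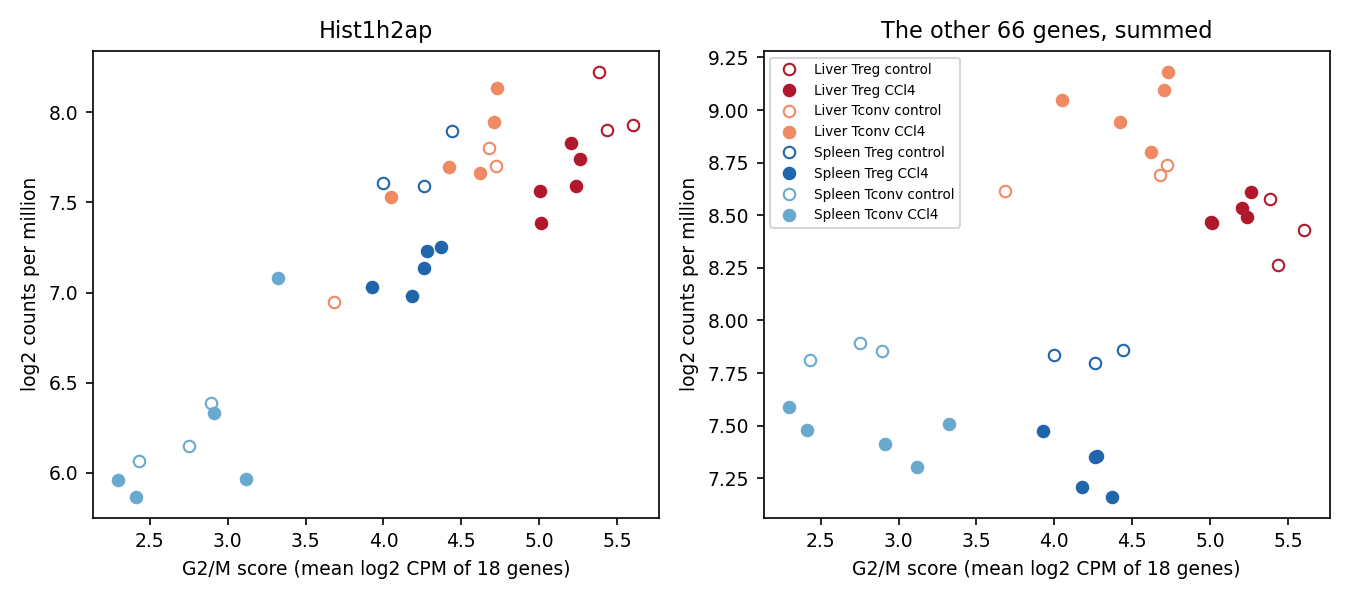
Log2 CPM (y axis) of Hist1h2ap and of the other 66 members summed, against the G2/M score (x axis, mean log2(CPM + 0.5) of 18 genes), with 1 point per library (open for control, filled for CCl4). Hist1h2ap rises with the score over all libraries, while the other genes separate by tissue at like scores.

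With the S phase genes as the score, r over the 32 libraries with group means subtracted was 0.539 for the whole family, 0.670 for Hist1h2ap and 0.157 for the other 66 genes. Within populations these values did not keep a sign: for the whole family r was 0.747 in liver Tconv and -0.651 in spleen Treg, where the CCl4 libraries had higher S phase scores (between 5.41 and 5.74, against between 5.37 and 5.38 in the controls) and lower histone sums. Hist1h2ap made up 47.7% of the summed level in spleen Treg controls and 46.8% after CCl4, 43.0% and 35.1% in liver Treg, 30.6% and 30.1% in liver Tconv, and 24.2% and 30.4% in spleen Tconv. Its share was thus larger in Treg than in Tconv in each of these pairs.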

How the data were processed

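Per the labels, RNA of sorted cells was made into cDNA with the Clontech Ultra Low v4 kit and NexteraXT libraries. Per the submitters' processing notes, bcl2fastq 2.19 and kallisto 0.44.0 were used, with the build GRCm38.p6 and DESeq2 named. Per the file headers, the deposited tables give the estimated count and the TPM of 118489 transcripts. Annotation release and strand setting: not given in the sources used here. Of the transcripts 98.5% matched GENCODE M21; the rest, 0.684% to 0.823% of the counts per library, were dropped. Estimated counts were summed to 35968 genes and rounded for edgeR 4.0.16 (R 4.3.3): TMM, filterByExpr by the 8 groups (17159 genes), 1 quasi-likelihood fit of the 8 groups with 24 residual degrees of freedom. SE were taken as the size of the log2 fold change over the root of F. Contrasts between tissues or cell types average both treatments, and libraries are called apart there when they do not overlap within either treatment. TPM were summed as deposited.

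Members and gene lists were chosen with earlier results of these data known. Named are, per comparison, called members whose libraries do not overlap (up to 6 per direction), the 8 members of highest mean TPM, 8 fixed members, and up to 3 called genes of other lists. Hist1h2ac, Hist1h2ai and the genes of the differences of effects were named after their values were seen. Alternatives were DESeq2 size factors, no filter, the compared libraries alone, limma-voom (limma 3.58.1), DESeq2 1.42.0, a block by sample number, each library left out, near-identical copies merged, spleen controls 2 and 3 left out (because of an earlier analysis) and, added after seeing the data, sums without Hist1h2ap. On simulated data with 200 changed genes, between 99% and 100% of genes changed by a log2 fold of 2 were recovered per comparison, and between 41% and 90% of those changed by 1. Genes of low count were not among those changed, and every gene was given the same spread. These rates therefore do not cover members with few counts, such as Hist1h4k at a mean of 6.625. Intervals and the limit for a count of 0 cover counting error only.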

Additional observations from a re-analysis of the deposited data

Results flagged for a closer look

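In the groups of 5 CCl4 libraries, 112 levels of sums and members were examined with Dixon's 95% criterion for a library apart from the other 4. It was passed 5 times, where chance gives about 1 in 20. In spleen Tconv, CCl4 library 1 had a summed H2A level of 227 CPM, against between 138 and 160 in the others, and Hist1h2ap at 135 CPM, against between 58.4 and 80.5. Its G2/M score was the highest of that group, at 3.33. Hist4h4 was at 2.56 CPM in spleen Tconv CCl4 library 2, against between 1.34 and 1.39. Hist1h4d was at 13.5 CPM in liver Treg CCl4 library 1, against between 8.84 and 10.2, and Hist1h2bc at 18.6 CPM in liver Tconv CCl4 library 1, against between 23.1 and 24.7.

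The CCl4 effect in liver Treg minus that in spleen Treg was called above 0 for Hist1h4n (log2 difference 1.73), Hist1h1e (1.33), Hist1h4c (1.50), Hist2h2bb (1.68) and Hist1h2ai (1.67). Hist1h4n and Hist1h1e were taken up because they were known to be lower in spleen Treg, so this is a description, and without spleen controls 2 and 3 the 5 calls became 1. The difference between liver Tconv and spleen Tconv was 1.57 for Hist1h1e and 1.53 for Hist1h4n. It was added after the values were seen, it uses the population in which Hist1h4n was noticed, and without those controls 0 members were called by edgeR (16 at an unadjusted p under 0.05).

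The liver excess was smaller in Treg than in Tconv for 13 members. The log2 differences were -3.86 for Hist1h3b, which was close to the floor in spleen Tconv, -1.64 for Hist1h3f, -0.997 for Hist1h2ap, -0.99 for Hist1h2ak, -0.95 for Hist4h4, -0.87 for Hist1h4n, -0.84 for Hist1h3e, -0.84 for Hist1h1b, -0.81 for Hist1h4c, -0.80 for Hist1h4d, -0.79 for Hist1h3a, -0.53 for Hist3h2a and -0.34 for Hist2h2aa1, with edgeR adjusted p between 0.000309 and 0.0449.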

How the results depend on the processing

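The summed liver excess kept its direction under every alternative run. Members called for liver against spleen were between 36 and 46 in Treg and between 52 and 55 in Tconv with each library left out, and 15 and 19 of 22 features with near-identical copies merged, where fewer features were tested. Treg against Tconv gave 21 to 25 calls in either tissue with each library left out. In spleen it gave 14 without controls 2 and 3, and 12 with copies merged.

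The CCl4 counts moved most. In liver Treg the fit of the compared libraries alone gave 2. In liver Tconv (1 as reported) it gave 0, limma-voom 5, DESeq2 8 and the replicate block by sample number 0, and with each library left out the count was 0 to 2. In spleen Treg (6) DESeq2 gave 12 and leaving out controls 2 and 3 gave 0, with 0 to 7 when each library was left out. In spleen Tconv (3) the count was 1 with no filter, with limma-voom and with copies merged, 0 in the fit of the compared libraries alone and without controls 2 and 3, 8 with DESeq2, and 0 to 8 with each library left out.

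For the CCl4 effect in liver Treg minus spleen Treg (5), limma-voom gave 10, DESeq2 13, the replicate block within treatment 8, and leaving out controls 2 and 3 gave 1, with 2 to 9 when each library was left out. For liver Tconv minus spleen Tconv (2) the fit of the compared libraries alone gave 0, limma-voom 4, DESeq2 12, the block within treatment 4, leaving out controls 2 and 3 gave 0, and each library left out 0 to 9. The liver excess in Treg minus Tconv (13) fell to 8 with copies merged.

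Sample numbers were not taken to pair the libraries, since the labels do not say that they do. The correlation r was above 0.1 in 5 of 48 same-numbered pairs (highest 0.133) and in 0 of 156 with different numbers (highest 0.067). Same-numbered pairs had a median r of 0.033, against -0.013 for different numbers. In 72 of 96 cases a library correlated best with its own number in another population. These values point to shared origin from the data and not the design, and the main fit takes no account of it. Beyond the counts above, the block left counts within 1.5 times.

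Summed levels turned sign without Hist1h2ap in liver Treg after CCl4 (log2 ratio 0.089) and for Treg against Tconv in spleen (-0.085), and as deposited TPM for Treg against Tconv in liver (0.15). They moved beyond 1 SD as TPM for CCl4 in liver Treg (-0.32) and for Treg against Tconv in spleen (0.62), and without Hist1h2ap for liver against spleen in Treg (0.90) and for Treg against Tconv in liver (-0.38). The relation to the G2/M score turned to -0.051 without Hist1h2ap. The causes were not tested.

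Among single named members 0 changed sign, and calls were lost in 23 of 445 values under settings other than 1 library left out, 13 of these without spleen controls 2 and 3. With 1 library left out, 36 of 800 values lost their call.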
